A study of Homo sapiens with 20 samples.

Results

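Mammary stem and progenitor markers are the genes by which mammary stem cells, their daughters and tumour-initiating cells are usually told apart: CD24, CD44, PROM1, ALDH1A1, ALDH1A3, EPCAM, KIT, TP63, SOX9 and SOX2. They were followed here by every probe set (a group of short probes that reads out 1 transcript region) that carried their symbol, over all 5 groups of the study. Of the 10 symbols, 9 had a named probe set, 31 probe sets in all, among 19775 genes and 54613 probe sets tested. TP63 was not analysed here. The cells were MII (MCF10-T1k), a human mammary epithelial line transformed with RAS, and total RNA was read on 20 Affymetrix arrays. All cells received siRNA by lipofection and were then kept in ordinary growth medium with serum, insulin, EGF, hydrocortisone and cholera toxin. The groups of 4 arrays each were siGFP (the control siRNA), siAPC, siAPC/siTAZ, sibcat (siRNA against beta-catenin) and sibcat/siTAZ. APC is part of the complex that destroys beta-catenin, beta-catenin (CTNNB1) is the coactivator of the Wnt pathway, and TAZ (WWTR1) is a coactivator held back by the Hippo pathway. No group received TAZ siRNA alone, and all groups come from 1 transformed line. The replicates are called biological, but nothing says that they were separate cultures, so the p-values measure the spread between these arrays, which may be partly technical.

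In mammary epithelium, basal and luminal cells descend from stem and progenitor cells that are sorted by surface proteins. CD44, a receptor for hyaluronan, and CD24, a small sialylated surface protein, define the CD44-high CD24-low profile used for tumour-initiating breast cells, and EPCAM marks epithelial and above all luminal cells. Aldehyde dehydrogenase activity, to which ALDH1A1 and ALDH1A3 contribute by making retinoic acid, marks luminal progenitors, and the transcription factors SOX9 and SOX2 are linked to stem-cell and progenitor states. Fewer cells of a type and less RNA per cell cannot be told apart in RNA from whole cultures.

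The siRNA targets fell in the groups that carried their siRNA, and WWTR1 was also lower without its own siRNA. On the log2 scale, APC fell by 0.88 in siAPC cells (limma adjusted p = 4.4e-11) and CTNNB1 fell by 1.34 in sibcat cells (3.6e-14), both against siGFP. WWTR1 fell by 2.66 from siAPC to siAPC/siTAZ (2.8e-18) and fell by 2.21 from sibcat to sibcat/siTAZ (8.9e-17), and it was also 0.41 and 0.43 lower in siAPC and sibcat cells than in siGFP cells. Adding TAZ siRNA did not leave the first target constant. CTNNB1 fell by a further 1.41 from sibcat to sibcat/siTAZ (1.5e-14), and APC fell by a further 0.46 from siAPC to siAPC/siTAZ (5.1e-07), so each TAZ comparison also holds a change in the first target. Array medians lay between 5.07 and 5.11, and 6 of 6 measured markers of mammary epithelial lines were above them in every group. Of 7 fibroblast markers, 4 or 5 were above the median: their mean lay between 7.05 and 7.16 on the siGFP arrays, between 6.71 and 6.84 on all siAPC and sibcat arrays, and between 7.58 and 8.11 on all arrays with TAZ siRNA. COL3A1 went from 5.08 in siAPC to 9.86 in siAPC/siTAZ cells and from 4.55 in sibcat to 8.16 in sibcat/siTAZ cells, while LUM stayed between 2.75 and 2.88 in the group means. PDGFRB, another of these markers, read 6.05 in siAPC and 5.62 in siAPC/siTAZ, and 5.98 in sibcat and 5.85 in sibcat/siTAZ cells. In siGFP cells COL1A1 read 9.55 and DCN 12.32, against 8.54 and 11.32 in siAPC and 8.76 and 11.85 in sibcat cells. PDGFRB and FAP did not fall there: PDGFRB read 5.85 in siGFP cells, and FAP read 9.13 in siGFP, 9.18 in siAPC and 9.16 in sibcat cells.

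Across the 9 measured genes, the markers that passed the test after a single depletion were all lower, and with TAZ siRNA some rose while others fell. At an adjusted p under 0.05, 5 of 9 genes fell after siAPC, where 40.0% of all genes were called and 18.7% were called lower. After sibcat 6 of 9 fell, against 37.1% called and 15.7% called lower among all genes. No member rose in either comparison in the gene-level fit, which takes the probe set with the highest mean for each gene. The median difference over the 9 genes was -0.32 after siAPC and -0.38 after sibcat, where the medians over all genes lay at -0.00 and 0.00. From siAPC to siAPC/siTAZ, 3 of 9 rose (CD44, ALDH1A1 and SOX9) and 3 fell (CD24, ALDH1A3 and EPCAM), where 43.5% of all genes were called, 20.7% higher and 22.8% lower. From sibcat to sibcat/siTAZ, only SOX9 rose and CD24, ALDH1A3 and EPCAM fell, where 31.7% of all genes were called, 18.0% higher and 13.7% lower. The siAPC and sibcat comparisons share the 4 siGFP arrays, and each TAZ comparison shares its single-depletion arrays with the comparison before it. Against siGFP, 5 of 9 were lower in siAPC/siTAZ cells (47.2% of all genes called, 24.3% lower) and 6 of 9 in sibcat/siTAZ cells (44.9% called, 19.5% lower). Between the backgrounds, 5 of 9 differed without TAZ siRNA (siAPC against sibcat, 33.8% of all genes called) and 5 of 9 with it (siAPC/siTAZ against sibcat/siTAZ, 45.0%). The interaction, which asks whether TAZ siRNA acted differently in the siAPC and sibcat backgrounds, passed in 6 of 9 genes, against 27.7% of all genes.

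**Figure D1:**
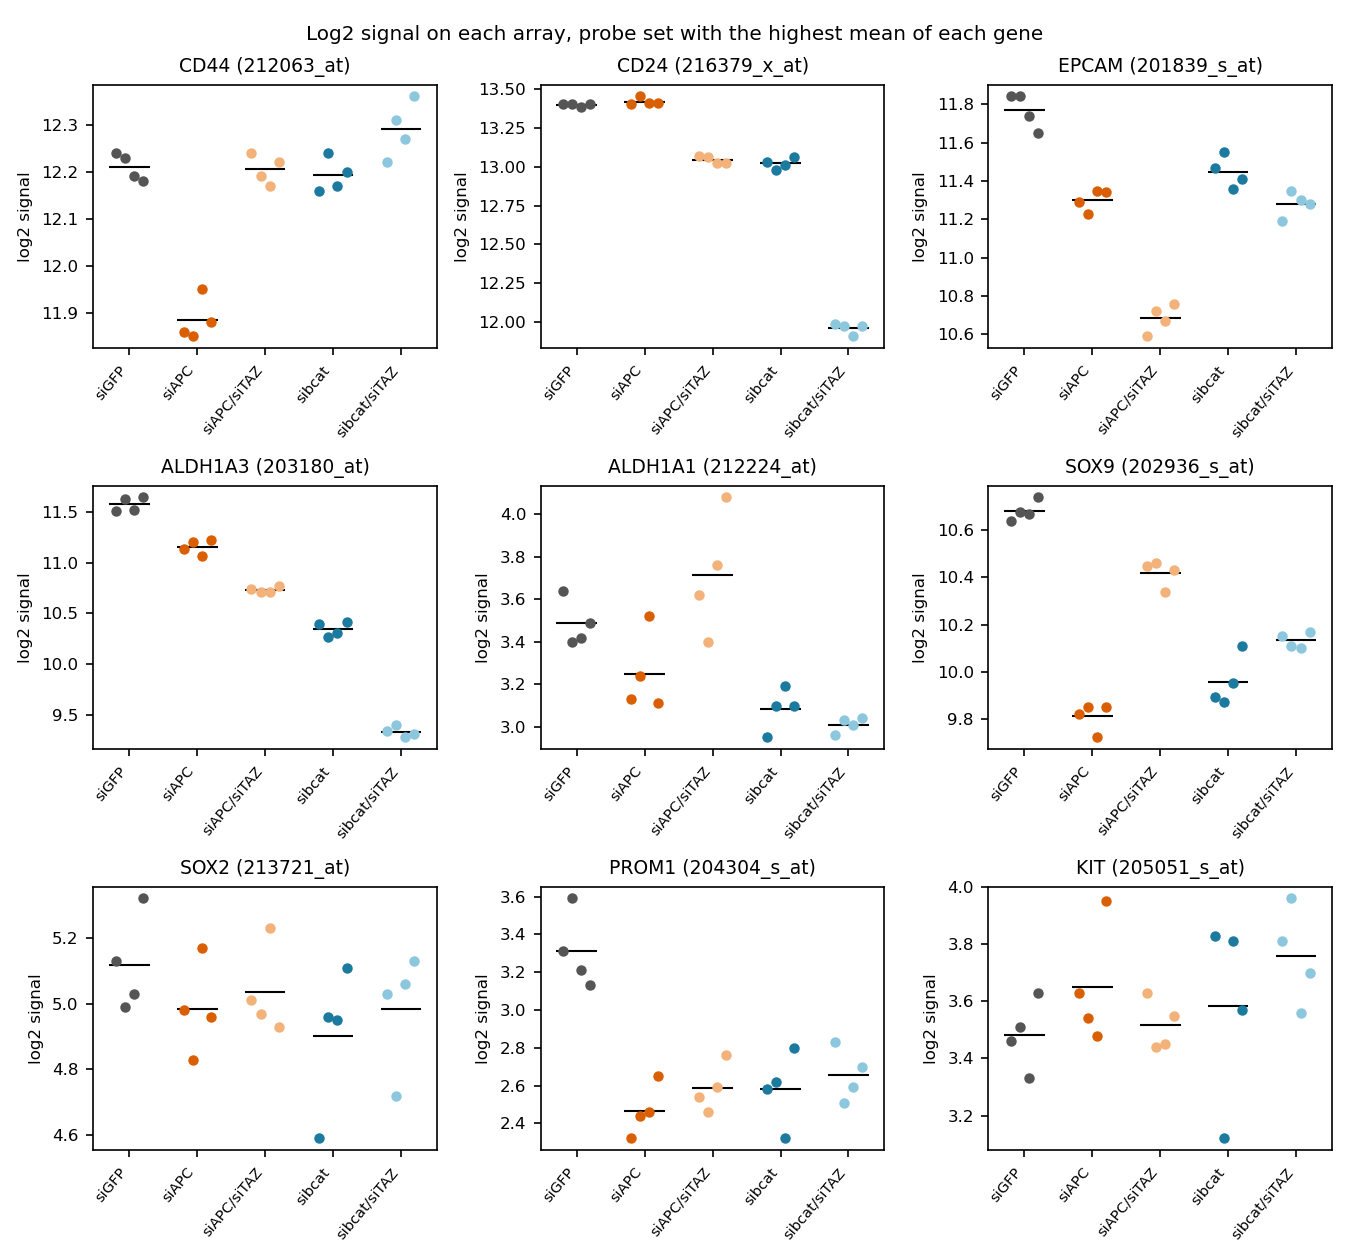
Log2 signal (vertical axis, a separate range for each gene) on each of the 20 arrays by group (horizontal axis), for the probe set with the highest mean of each of the 9 genes. Points are arrays and lines are group means. ALDH1A3 steps down from 11.57 in siGFP to 9.33 in sibcat/siTAZ, CD24 is lowest in sibcat/siTAZ at 11.96, and CD44 is lowest in siAPC at 11.88.

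**Figure D2:**
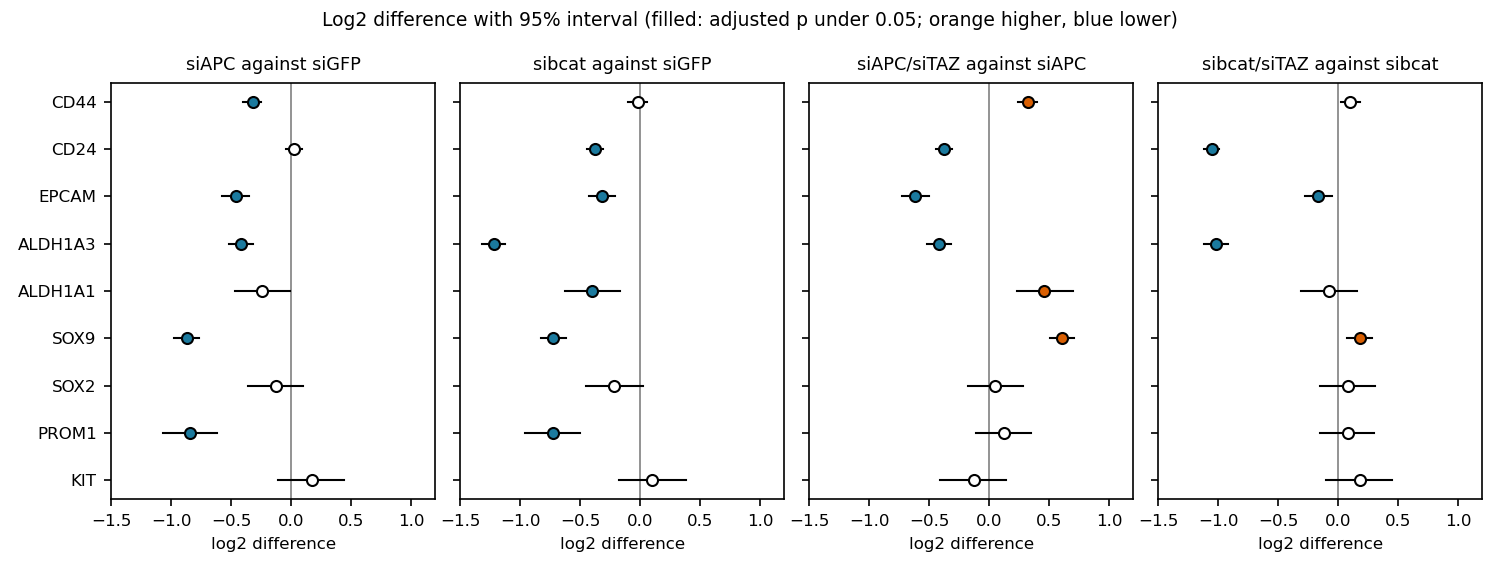
Log2 difference of each gene (horizontal axis) with its 95% interval in 4 comparisons, 4 arrays per group. Filled points have an adjusted p under 0.05, orange for higher and blue for lower. With TAZ siRNA, CD24 and ALDH1A3 lie left of 0 and SOX9 lies right of 0 in both backgrounds.

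CD24 was not called after siAPC in its brightest probe set, fell after beta-catenin depletion and fell most where both beta-catenin and TAZ were depleted. The gene lies on the minus strand at chr6:106969831-106976855. A start-site window of CD24 is shown beside that of CD44 because these markers moved in opposite directions from siAPC to siAPC/siTAZ. The promoter table of RefSeq (GRCh38.p14; 250 bases before to 50 after each start, given 5′ to 3′ on the gene's strand) holds 12 windows for 7 of the 9 genes. They were searched on both strands for GGAATG, the core letters bound by TEAD factors, through which TAZ acts, and for CTTTGA, the core letters bound by TCF/LEF factors, through which beta-catenin acts. Of 35116 such promoters, 14% hold the first and 12.9% the second. In the members, the first was in 1 window, of CD24, and the second in 2, of PROM1 and ALDH1A1. All 3 CD24 windows lie inside the span of the gene. The CD24 window with the match (1 of 3, minus strand, chr6:106973990-106974289, match in capitals) and the CD44 window (plus strand, chr11:35138921-35139220), which holds neither run of letters, are:
CD24: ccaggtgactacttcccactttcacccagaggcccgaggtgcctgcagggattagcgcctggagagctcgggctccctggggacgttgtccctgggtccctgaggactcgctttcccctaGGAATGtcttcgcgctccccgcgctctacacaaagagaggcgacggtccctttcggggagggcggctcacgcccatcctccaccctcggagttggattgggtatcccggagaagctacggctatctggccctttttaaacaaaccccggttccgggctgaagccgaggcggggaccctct
CD44: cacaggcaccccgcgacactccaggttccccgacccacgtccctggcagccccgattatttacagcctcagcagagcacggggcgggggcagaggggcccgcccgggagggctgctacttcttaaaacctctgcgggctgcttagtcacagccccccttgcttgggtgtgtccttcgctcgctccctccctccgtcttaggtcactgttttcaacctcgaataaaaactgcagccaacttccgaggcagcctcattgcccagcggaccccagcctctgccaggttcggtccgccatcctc
A match describes letters only, and no match says only that the letters are not in the window.

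The CD24 probe set 216379_x_at read 13.40, 13.40, 13.38 and 13.40 on the siGFP arrays (replicates A to D) and 13.40, 13.45, 13.41 and 13.41 on the siAPC arrays. It read 13.07, 13.06, 13.02 and 13.02 in siAPC/siTAZ, 13.03, 12.98, 13.01 and 13.06 in sibcat, and 11.99, 11.98, 11.91 and 11.98 in sibcat/siTAZ cells. The arrays thus fell into 3 levels with no overlap: siGFP with siAPC at the top, siAPC/siTAZ with sibcat below them, and sibcat/siTAZ far below. Within the 2 upper levels the groups did not pass the test (siAPC minus siGFP 0.02, 95% interval -0.04 to 0.09, and siAPC/siTAZ minus sibcat 0.02, -0.04 to 0.09). CD24 fell by 0.38 with SE 0.03 after sibcat (limma adjusted p = 9.8e-09) and by the same 0.38 from siAPC to siAPC/siTAZ (5.5e-09). From sibcat to sibcat/siTAZ it fell by 1.05 with SE 0.03 (1.7e-15), which makes sibcat/siTAZ 2.69-fold lower than siGFP. The effect of TAZ siRNA was 0.68 log2 units more negative in the sibcat than in the siAPC background (SE 0.04, adjusted p of the interaction 7.5e-10).

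All 6 CD24 probe sets fell in the same comparisons in the fit over all probe sets. CD24 has processed pseudogenes of near-identical sequence, which its probe sets may read too. Each fell after sibcat (-0.37 to -0.51), where 11.4% of all probe sets were called lower. Each also fell from siAPC to siAPC/siTAZ (-0.38 to -0.68; 16.4% of all probe sets lower) and from sibcat to sibcat/siTAZ (-1.04 to -1.38; 9.90% lower). The probe set 209772_s_at fell furthest, by 1.82 from siGFP (10.55) to sibcat/siTAZ (8.74). This probe set was also the only one to rise after siAPC, by 0.16 (95% interval 0.05 to 0.27, adjusted p = 0.0247), with overlapping groups. In all 6 the interaction passed, at 0.59 to 0.72, where 9.46% of all probe sets were called in that direction.

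CD44 fell after both depletions in most of its 13 probe sets, but the probe set with the highest mean moved least of those that fell after siAPC. CD44 messages are spliced into a standard form and variant forms, and the probe sets read different stretches of them. That probe set, 212063_at, read 12.24, 12.23, 12.19 and 12.18 in siGFP and 11.86, 11.85, 11.95 and 11.88 in siAPC cells. It read 12.24, 12.19, 12.17 and 12.22 in siAPC/siTAZ, 12.16, 12.24, 12.17 and 12.20 in sibcat, and 12.22, 12.31, 12.27 and 12.36 in sibcat/siTAZ cells. Only the siAPC arrays stood apart, below all others. The probe set fell by 0.32 with SE 0.04 after siAPC (limma adjusted p = 5.6e-07) and rose by 0.32 from siAPC to siAPC/siTAZ (5.5e-07), to a mean of 12.21 as in siGFP. After sibcat its difference was -0.02 (95% interval -0.10 to 0.06). From sibcat to sibcat/siTAZ it was 0.10 (0.02 to 0.18, adjusted p = 0.0553), which passed without siAPC replicate C, sibcat replicate B or sibcat/siTAZ replicate A (adjusted p 0.0231 to 0.0485). Against siGFP, sibcat/siTAZ had an adjusted p of 0.0935, and 0.0381 without sibcat/siTAZ replicate A. Against sibcat/siTAZ, siAPC/siTAZ differed by -0.08 (adjusted p = 0.0747, and 0.0294 without sibcat/siTAZ replicate A). These 3 differences, of 0.08 to 0.11 in size, also passed with genes of low signal left out (0.0186 to 0.0396), with arrays centred on their medians (0.018 to 0.038) and with a mean-dependent prior variance (0.00875 to 0.0249).

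In the fit over all probe sets, 12 of 13 CD44 probe sets fell after siAPC, with a median of -0.92, where 14.6% of all probe sets were called lower. The farthest was 217523_at, at 9.84, 9.95, 9.84 and 9.73 in siGFP and 8.19, 8.24, 8.34 and 8.27 in siAPC cells, a fall of 1.58 with SE 0.06 (adjusted p = 4.1e-14). After sibcat 11 of 13 fell (median -0.55; 11.4% of all probe sets called lower), and 217523_at fell by 1.00 to 8.84. From siAPC to siAPC/siTAZ 12 of 13 rose (median 0.28; 19.1% of all probe sets called higher), led by 217523_at with 1.02 and 229221_at with 0.85. None of the 13 passed from sibcat to sibcat/siTAZ (lowest -0.14, highest 0.23; limma, 6 of 13 at an unadjusted p under 0.05), where 22.6% of all probe sets were called. The test of the difference between the TAZ siRNA effects passed in 10 of 13, all with the more positive effect in the siAPC background, up to 0.97 for 217523_at. Of all probe sets, 9.46% were called in that direction. Against siGFP, 11 of 13 were still lower in siAPC/siTAZ (median -0.54; 18.1% of all probe sets lower) and 11 of 13 in sibcat/siTAZ cells (median -0.57; 15.3% lower), while 212063_at lay at -0.00 and 0.08. The probe set 234418_x_at, at 2.22 to 2.75 on all arrays, never passed. As measures of RNA quality, 2 genes were read at both ends. The signal of ACTB at its 3′ end minus that at its 5′ end was 1.54 to 1.60 on the siAPC arrays, against 1.78 to 1.92 in siGFP, 1.76 to 1.87 in sibcat, 1.87 to 2.07 in siAPC/siTAZ and 1.98 to 2.12 in sibcat/siTAZ. For GAPDH this difference was 0.11 to 0.15 on the siAPC arrays, above the 0.09 to 0.10 of siGFP, so the genes went opposite ways there. It was 0.08 to 0.16 in sibcat, 0.15 to 0.17 in siAPC/siTAZ and 0.15 to 0.21 in sibcat/siTAZ. The part of RNA quality in the CD44 values, or in any other result, was not tested.

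**Figure D3:**
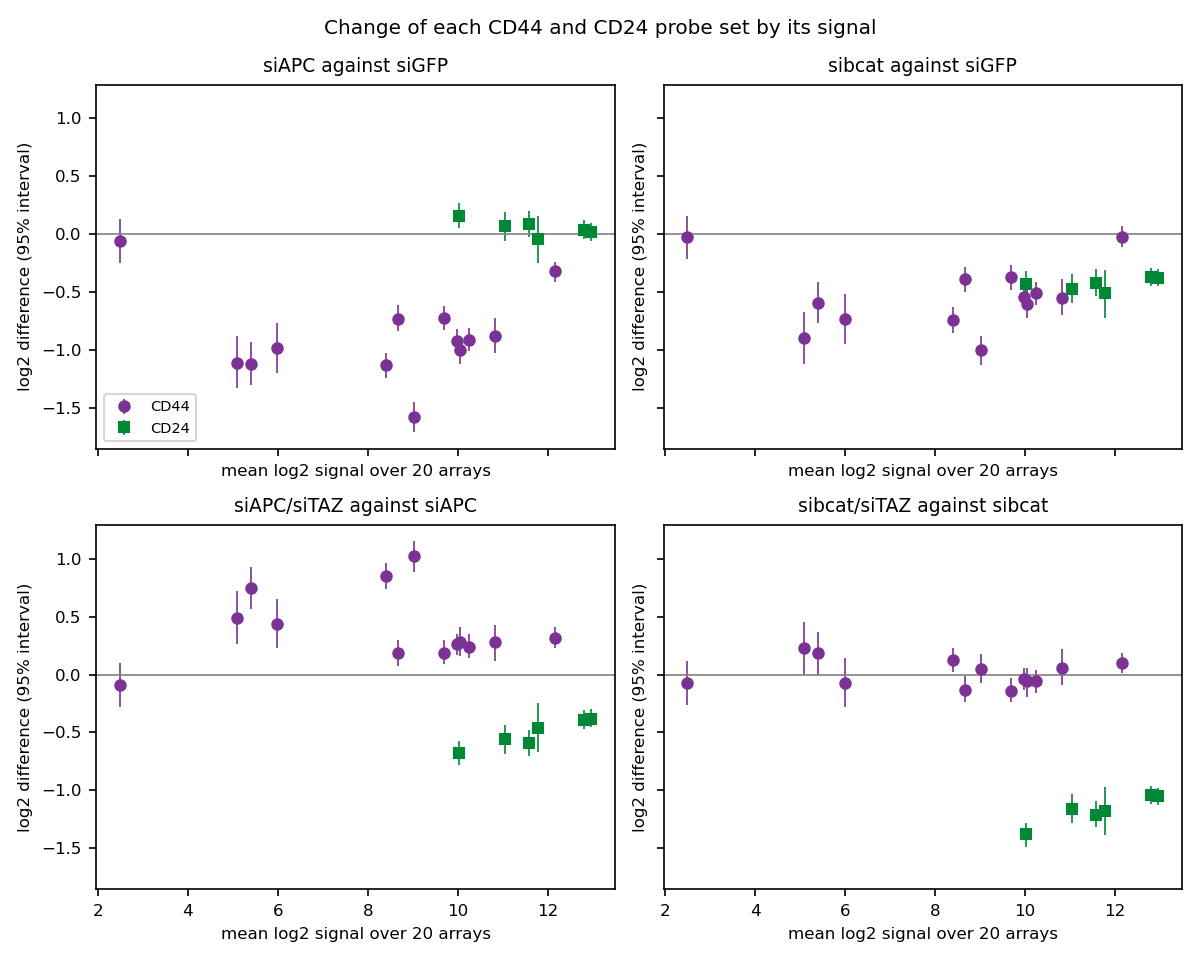
Log2 difference of each CD44 (13, circles) and CD24 (6, squares) probe set (vertical axis, bars are 95% intervals) by its mean log2 signal over 20 arrays (horizontal axis), in 4 comparisons of 4 arrays each. After siAPC the CD44 circles lie between -1.58 and -0.06 while the CD24 squares lie between -0.04 and 0.16. From siAPC to siAPC/siTAZ the CD24 squares lie below 0 and all CD44 circles but the dimmest lie above it.

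EPCAM, an epithelial adhesion protein, fell in every depleted group and was lowest where APC and TAZ were depleted together. Its probe set read 11.84, 11.84, 11.74 and 11.65 in siGFP, 11.29, 11.23, 11.35 and 11.34 in siAPC, and 10.59, 10.72, 10.67 and 10.76 in siAPC/siTAZ cells. It read 11.47, 11.55, 11.36 and 11.41 in sibcat and 11.19, 11.35, 11.30 and 11.28 in sibcat/siTAZ cells. Every siGFP array was above every other array and every siAPC/siTAZ array below every other. The fall was 0.46 with SE 0.05 after siAPC (limma adjusted p = 7.0e-07) and 0.32 after sibcat (7.9e-05). TAZ siRNA lowered it by a further 0.62 in the siAPC background (1.0e-08) and by 0.17 in the sibcat background (0.0232), and these effects differed by -0.45 (SE 0.08, adjusted p = 1.4e-04). In total EPCAM was 2.12-fold lower in siAPC/siTAZ than in siGFP cells. The sibcat/siTAZ call against sibcat did not pass without sibcat replicate A, sibcat replicate B or sibcat/siTAZ replicate A (adjusted p 0.0548 to 0.0874), nor with the arrays of the compared groups only (0.058). The direct comparison of siAPC with sibcat was at the threshold, at -0.14 (adjusted p = 0.0471). It did not pass without siGFP replicate C, siAPC replicates A, B or D, siAPC/siTAZ replicates B or C, sibcat replicates A, B or D, or sibcat/siTAZ replicates C or D (0.0508 to 0.159), nor in the fit over all probe sets (0.0767) or with the compared groups only (0.0724).

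ALDH1A3, which oxidises retinaldehyde to retinoic acid, had the widest range of group means among the 9 genes when each is read by the probe set with the highest mean, and fell in each of the 4 main comparisons. The probe set 203180_at read 11.51, 11.63, 11.52 and 11.64 in siGFP, 11.13, 11.20, 11.06 and 11.22 in siAPC, and 10.74, 10.71, 10.71 and 10.77 in siAPC/siTAZ cells. It read 10.40, 10.27, 10.31 and 10.42 in sibcat and 9.34, 9.40, 9.28 and 9.31 in sibcat/siTAZ cells. No groups overlapped, and each of the 4 steps between neighbours in that order passed the test (limma adjusted p between 1.3e-12 and 8.2e-07). The fall was 0.42 with SE 0.05 after siAPC and 1.22 with SE 0.05 after sibcat (7.4e-14), and TAZ siRNA lowered it by 0.42 in the siAPC and by 1.02 in the sibcat background. Sibcat/siTAZ cells had 4.73-fold less than siGFP cells. The TAZ siRNA effects differed by 0.60 (SE 0.07, adjusted p = 8.9e-07). The other probe set, 1558649_at, lay between 3.02 and 3.64 on all arrays, below the array medians, and never passed. With the mean of both probe sets standing for the gene, the difference between the TAZ effects was 0.19 (adjusted p = 0.178).

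ALDH1A1, the related enzyme, was near the lower end of the signal range and followed another course. Its 1 probe set read 3.64, 3.40, 3.42 and 3.49 in siGFP, 3.13, 3.24, 3.52 and 3.11 in siAPC, and 3.62, 3.40, 3.76 and 4.08 in siAPC/siTAZ cells. It read 2.95, 3.10, 3.19 and 3.10 in sibcat and 2.96, 3.03, 3.01 and 3.04 in sibcat/siTAZ cells. All sibcat and sibcat/siTAZ arrays were below all siGFP arrays, while siAPC and siAPC/siTAZ overlapped. It fell by 0.40 after sibcat (limma adjusted p = 0.00625) and rose by 0.46 from siAPC to siAPC/siTAZ (0.0016). Sibcat/siTAZ minus sibcat was -0.08 (95% interval -0.31 to 0.16), and the TAZ siRNA effects differed by 0.54 (SE 0.16, adjusted p = 0.0124). After siAPC the difference was -0.24 (adjusted p = 0.0989, and 0.0217 or 0.0385 without siAPC replicate C or siAPC/siTAZ replicate D). In siAPC/siTAZ against siGFP it was 0.23 (adjusted p = 0.101, and 0.0122 without siAPC/siTAZ replicate B). The windows of these related enzymes are shown because they moved in opposite directions from siAPC to siAPC/siTAZ. That of ALDH1A1 (minus strand, chr9:72953004-72953303) holds CTTTGA on its other strand, in capitals as TCAAAG, and that of ALDH1A3 (plus strand, chr15:100879581-100879880) holds neither run:
ALDH1A1: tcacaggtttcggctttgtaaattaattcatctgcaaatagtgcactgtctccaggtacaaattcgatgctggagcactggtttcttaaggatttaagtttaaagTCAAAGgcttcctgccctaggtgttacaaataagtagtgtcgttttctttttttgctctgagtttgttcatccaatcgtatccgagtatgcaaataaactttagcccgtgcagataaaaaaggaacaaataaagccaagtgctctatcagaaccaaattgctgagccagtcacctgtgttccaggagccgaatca
ALDH1A3: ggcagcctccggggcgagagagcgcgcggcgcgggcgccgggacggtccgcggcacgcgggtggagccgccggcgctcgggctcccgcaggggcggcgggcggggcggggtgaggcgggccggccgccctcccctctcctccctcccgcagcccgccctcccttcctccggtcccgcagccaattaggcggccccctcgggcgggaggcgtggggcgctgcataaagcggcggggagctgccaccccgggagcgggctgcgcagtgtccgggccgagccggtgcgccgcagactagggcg

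SOX9, a transcription factor of luminal progenitors, fell after both depletions and rose again with TAZ siRNA. The probe set 202936_s_at read 10.64, 10.68, 10.67 and 10.74 in siGFP, 9.82, 9.85, 9.72 and 9.85 in siAPC, and 10.45, 10.46, 10.34 and 10.43 in siAPC/siTAZ cells. It read 9.89, 9.87, 9.95 and 10.11 in sibcat and 10.15, 10.11, 10.10 and 10.17 in sibcat/siTAZ cells. The siGFP arrays were highest, the siAPC/siTAZ arrays next, and sibcat and sibcat/siTAZ met at the highest sibcat array. It fell by 0.87 with SE 0.05 after siAPC (limma adjusted p = 1.7e-11) and by 0.73 after sibcat (4.3e-10). It rose by 0.61 from siAPC to siAPC/siTAZ (3.0e-09) and by 0.18 from sibcat to sibcat/siTAZ (0.0085), a difference of 0.43 between the TAZ siRNA effects (SE 0.07, 7.5e-05). The smaller rise had an adjusted p of 0.054 with the arrays of the compared groups only. SiAPC was 0.14 below sibcat (0.0283), which did not pass without siAPC replicate C or sibcat replicate D (0.104 to 0.115), nor in the fit over all probe sets (0.0524) or with the compared groups only (0.115). The second probe set, 202935_s_at, fell by 0.71 and 0.56 after the depletions and rose by 0.69 in the siAPC background, but its 0.15 in the sibcat background did not pass (0.0598). In siAPC/siTAZ against siGFP it differed by -0.02 (95% interval -0.14 to 0.09), while 202936_s_at was 0.26 lower (1.6e-04).

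SOX2, a pluripotency factor, gave no call in the probe set with the highest mean of its 4, and a large rise in another. The probe set 213721_at lay between 4.59 and 5.32 on all arrays, with differences of -0.22 to 0.08 in the 9 comparisons, none called by limma and 0 at an unadjusted p under 0.05. The probe sets 213722_at and 214178_s_at, at 3.43 to 4.03 and so below the array medians, were not called either. The fourth, 228038_at, was singled out after its values were seen. It read 3.37, 3.23, 3.36 and 3.40 in siGFP, 4.21, 3.88, 4.12 and 4.39 in siAPC, and 5.26, 6.49, 5.88 and 6.46 in siAPC/siTAZ cells. It read 3.35, 3.31, 3.22 and 3.41 in sibcat and 3.95, 4.43, 4.62 and 4.22 in sibcat/siTAZ cells. Only the siAPC/siTAZ arrays rose above the array medians, and they spread over more than a log2 unit. In the fit over all probe sets it rose by 0.81 with SE 0.20 after siAPC (limma adjusted p = 0.00288) and differed by -0.02 after sibcat (95% interval -0.43 to 0.39). TAZ siRNA raised it by 1.87 in the siAPC background (1.4e-07) and by 0.98 in the sibcat background (7.2e-04), and these effects differed by 0.89 (SE 0.28, adjusted p = 0.0285). The probe sets of SOX2 therefore differ in their calls, and no direction is given for the gene. The uncalled probe sets lay below or near the array medians, where a difference that was not called does not show an equal level.

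**Figure D4:**
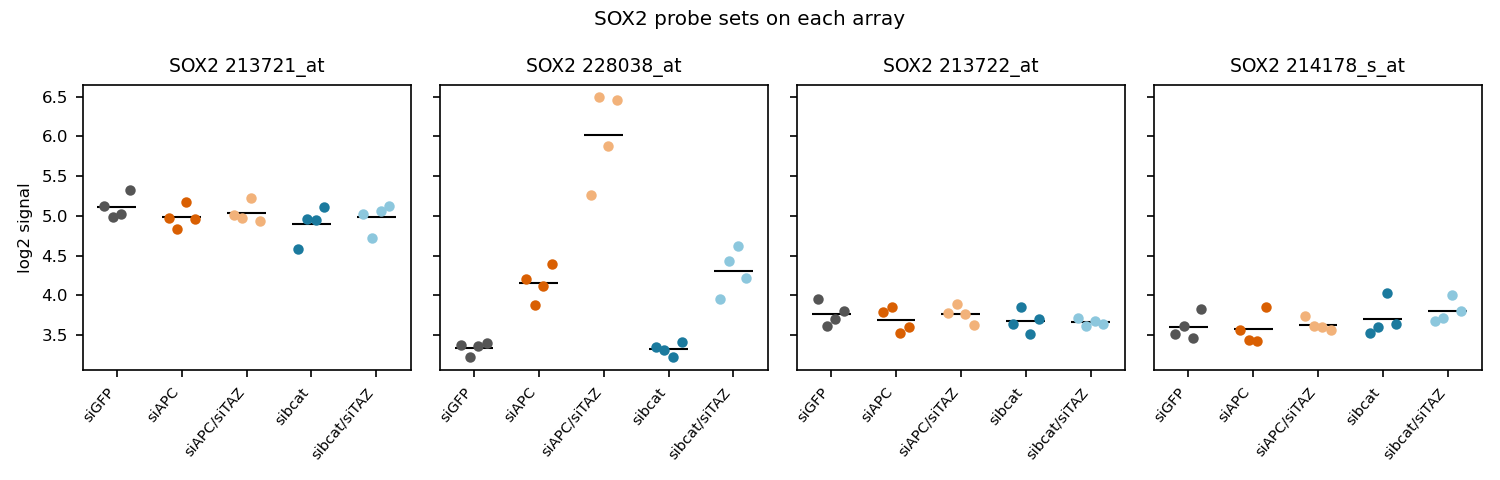
Log2 signal of the 4 SOX2 probe sets (vertical axis, shared) on each of the 20 arrays by group (horizontal axis). Points are arrays and lines are group means. In 228038_at the mean goes from 3.34 in siGFP to 6.02 in siAPC/siTAZ cells, while none of the other 3 was called in any comparison.

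PROM1 and KIT were below the array medians in every group. PROM1, the surface protein CD133, read 3.31, 3.59, 3.21 and 3.13 in siGFP cells and between 2.32 and 2.83 on all other arrays, with no overlap. It fell by 0.84 with SE 0.11 after siAPC (limma adjusted p = 2.2e-06) and by 0.73 after sibcat (1.5e-05), and no pair of depleted groups differed past the threshold. With TAZ siRNA the differences were 0.12 (95% interval -0.11 to 0.35) in the siAPC and 0.08 (-0.15 to 0.30) in the sibcat background. KIT, the receptor of stem cell factor on luminal progenitors, lay between 3.12 and 3.96 with overlapping groups and was not called by limma in any of the 9 comparisons, with 0 at an unadjusted p under 0.05 in the gene-level fit and 1 in the fit over all probe sets (sibcat/siTAZ against siGFP, 0.0495). Its largest difference from siGFP was 0.28 in sibcat/siTAZ cells (-0.00 to 0.55, adjusted p = 0.102), which passed without sibcat replicate B (0.0337) and with the compared groups only (0.0347). SiAPC/siTAZ minus sibcat/siTAZ was -0.24 (adjusted p = 0.159) and passed with the compared groups only (0.0455). At signals this low on the array, a difference that was not called does not show an equal level.

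The fibroblast marker mean given at the start was lower after either single depletion and higher with TAZ siRNA. The part of this mean in the results was not tested. In direction only, SOX9 fell and rose as this mean did in both backgrounds, and CD44 did so in the siAPC background. With TAZ siRNA the mean lay above that of siGFP. The SOX9 probe set 202936_s_at stayed below siGFP, by -0.26 in siAPC/siTAZ and -0.55 in sibcat/siTAZ cells. Of 13 CD44 probe sets, 11 were still lower in siAPC/siTAZ than in siGFP cells. Other members moved otherwise. EPCAM and ALDH1A3 fell after both single depletions and fell again with TAZ siRNA in both backgrounds. PROM1 fell after both depletions and was not called with TAZ siRNA. CD24 was not called after siAPC in its brightest probe set, and fell with TAZ siRNA. EPCAM and CD24 were lower with TAZ siRNA where the collagen genes COL1A1 (8.54 to 11.21 from siAPC to siAPC/siTAZ) and COL3A1 were higher, and the epithelial marker mean went from at least 11.23 on the siAPC arrays to at most 10.83 on the siAPC/siTAZ arrays, and from 10.91 to 11.13 on the sibcat arrays to 10.65 to 10.71 on the sibcat/siTAZ arrays. The epithelial markers did not all go this way: the basal keratin KRT5 read 11.88 in siAPC and 12.68 in siAPC/siTAZ, and 11.58 in sibcat and 12.34 in sibcat/siTAZ cells. CD44, SOX9 and ALDH1A1 rose from siAPC to siAPC/siTAZ, and of these only SOX9 was called higher from sibcat to sibcat/siTAZ.

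The genes around the markers were counted in 11 lists, to be read against the shares of all genes given above and against medians over all genes of -0.02 to 0.00 in the 4 main comparisons. Luminal progenitor genes fell in 13 of 20 after siAPC (3 rose, median -0.96) and in 13 of 20 after sibcat (3 rose, median -0.56). GABRP, a GABA receptor subunit used as a luminal progenitor marker, changed by -3.29 and -4.95, LCN2 (lipocalin) by -3.06 and -3.11, and the keratin KRT23 by -2.78 and -4.77. With TAZ siRNA the list split, with 8 higher and 5 lower in the siAPC and 4 higher and 8 lower in the sibcat background (medians -0.00 and -0.15). The simple keratins KRT7 and KRT8 fell in both, by 1.54 and 1.47 and by 1.68 and 1.09, KRT23 rose by 1.44 in the first and NOTCH3 by 1.09 in the second. The basal and myoepithelial genes (21 measured) moved both ways: 6 rose and 10 fell after siAPC (median -0.22), 5 rose and 11 fell after sibcat (median -0.19), and with TAZ siRNA 8 rose and 7 fell in the siAPC and 7 rose and 8 fell in the sibcat background. The contractile kinase MYLK rose by 1.26 and 0.98 and the peptidase MME (CD10) by 1.26 and 1.08, while LAMB3 of laminin-332 fell by 1.03 after siAPC and TRIM29 by 0.99 after sibcat. TAZ siRNA lowered MYLK by 1.86 and 1.36 in the siAPC and sibcat backgrounds and MME by 1.05 in the first, and raised ACTA2 by 1.56 in the first and SNAI2 by 0.77 in the second, where ITGB4 fell by 0.80. Of 12 mature luminal genes, 2 rose and 2 fell after siAPC (40.0% of all genes called, median 0.00), and 1 rose and 2 fell after sibcat (37.1% of all genes called, median -0.05). AGR2 fell by 3.02 and 2.32 and FOXA1 by 0.52 and 0.42, and XBP1 rose by 0.88 and 0.54.

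Beside ALDH1A1 and ALDH1A3, 17 other aldehyde dehydrogenases were measured. Of these, 4 rose and 3 fell after siAPC (40.0% of all genes called, median 0.08), and 8 rose and 3 fell after sibcat (37.1% of all genes called, median 0.19). With TAZ siRNA 5 rose and 7 fell in the siAPC background (43.5% of all genes called), and 5 rose and 4 fell in the sibcat background (31.7% of all genes called). ALDH1L2, a mitochondrial folate enzyme, rose by 2.24 and 1.77 and fell again with TAZ siRNA (-2.08 and -1.81). ALDH3B2 changed by -2.32 and -2.14 after the depletions, ALDH3A2 by -1.05 after siAPC and ALDH3A1 by -1.05 after sibcat. Of 14 genes of retinoic acid metabolism and response, 8 fell after siAPC (3 rose, median -0.51) and 8 after sibcat (1 rose, median -0.26). Among them were the retinoic acid-responsive RARRES1 (-2.57 and -2.14), the retinaldehyde reductase DHRS3 (-1.62 and -1.30), PLAAT4 (-1.99 after siAPC) and the binding protein CRABP2 (-1.64 after sibcat). With TAZ siRNA 6 rose and 3 fell in the siAPC and 3 rose and 5 fell in the sibcat background. The dehydrogenase DHRS9 rose by 1.03 and 0.90 and TGM2 fell by 1.31 and 1.26, RARRES1 fell by 1.00 in the sibcat background, and DHRS3 rose by 0.94 in the siAPC background.

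Of 13 measured genes that splice CD44 messages, bind CD44 or handle its ligand hyaluronan, 4 rose and 4 fell after siAPC, and 5 rose and 6 fell after sibcat (medians -0.01 and -0.10). The hyaluronan synthase HAS2 rose from 5.08 in siGFP to 9.53 in siAPC cells (4.45 with SE 0.10, limma adjusted p = 8.2e-18) and by a further 1.30 with TAZ siRNA. The splicing factor ESRP1, which favours variant CD44 forms, fell by 1.14 after sibcat, and HAS3 fell by 1.74 there and rose by 1.89 with added TAZ siRNA. TNFAIP6, a hyaluronan-binding protein, fell by 1.94 after siAPC and rose by 2.52 from sibcat to sibcat/siTAZ, and ANK3, the membrane adaptor ankyrin-G, fell by 1.42 and 1.34 after the depletions and rose by 1.41 with TAZ siRNA in the siAPC background. The membrane linker EZR fell by 0.95 from sibcat to sibcat/siTAZ. In each TAZ comparison 8 of the 13 rose and 2 fell, with medians of 0.46 and 0.20. Of 9 EPCAM family members and partners, 5 fell and 3 rose after siAPC (median -0.45) and 6 fell and 1 rose after sibcat (median -0.35). With TAZ siRNA 4 fell and 2 rose in the siAPC and 5 fell and 1 rose in the sibcat background. The tight-junction partner CLDN7 fell by 0.58, 0.91, 0.50 and 0.56 in the 4 comparisons, the protease inhibitor SPINT1 by 1.43 and 1.18 after the depletions, and the tetraspanin CD9 by 0.52 after siAPC and 0.42 in sibcat/siTAZ cells against sibcat.

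Of 17 relatives of SOX9 and SOX2, 4 rose and 3 fell after siAPC (40.0% of all genes called, median -0.00). After sibcat 2 rose and 3 fell (37.1% of all genes called, median -0.07). With TAZ siRNA 4 rose in each background and 1 fell, in the siAPC background (43.5% of all genes called in the siAPC and 31.7% in the sibcat background). SOX4 rose by 0.89 after siAPC and fell by 0.70 after sibcat, SOX15 fell by 0.75 and 0.64, and SOX5 rose by 0.59 and 0.64 and by a further 0.99 and 1.10 with TAZ siRNA. SOX6 rose by 1.18 from siAPC to siAPC/siTAZ. Of 16 pluripotency and self-renewal factors, 4 rose and 3 fell after siAPC (40.0% of all genes called, median 0.05). The R-spondin receptor LGR6 was up by 1.82, KLF4 up by 0.58 and PROM2, the paralog of PROM1, down by 1.11. After sibcat 2 rose and 4 fell (37.1% of all genes called, median -0.06), led by PROM2 (-0.76), MSI2 (-0.68) and KLF5 (-0.49). With TAZ siRNA 5 rose and 4 fell in the siAPC background (43.5% of all genes called), and 2 rose and 0 fell in the sibcat background (31.7% of all genes called). MYC rose by 0.64 and 0.11. For p63, whose own level was not analysed here, 15 relatives and targets were measured: 8 fell and 2 rose after siAPC, 10 fell and 0 rose after sibcat (medians -0.15 and -0.55), and with TAZ siRNA 5 rose and 4 fell in the siAPC and 8 rose and 2 fell in the sibcat background. The desmosomal cadherin DSC3 fell by 1.00 and 0.78 and rose by 1.18 and 0.92 with TAZ siRNA, and GRHL3 fell by 0.58 and 1.55. Around KIT, 10 genes were measured: 3 rose and 5 fell after siAPC, 3 rose and 3 fell after sibcat (medians -0.12 and -0.06), and with TAZ siRNA 4 rose and 3 fell in the siAPC and 4 rose and 1 fell in the sibcat background. Its ligand KITLG fell by 0.95 after sibcat and rose by 1.08 from sibcat to sibcat/siTAZ and by 0.45 from siAPC to siAPC/siTAZ. The adaptor GAB2 rose by 0.89 after siAPC and fell by 1.16 and 1.08 with TAZ siRNA.

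**Figure D5:**
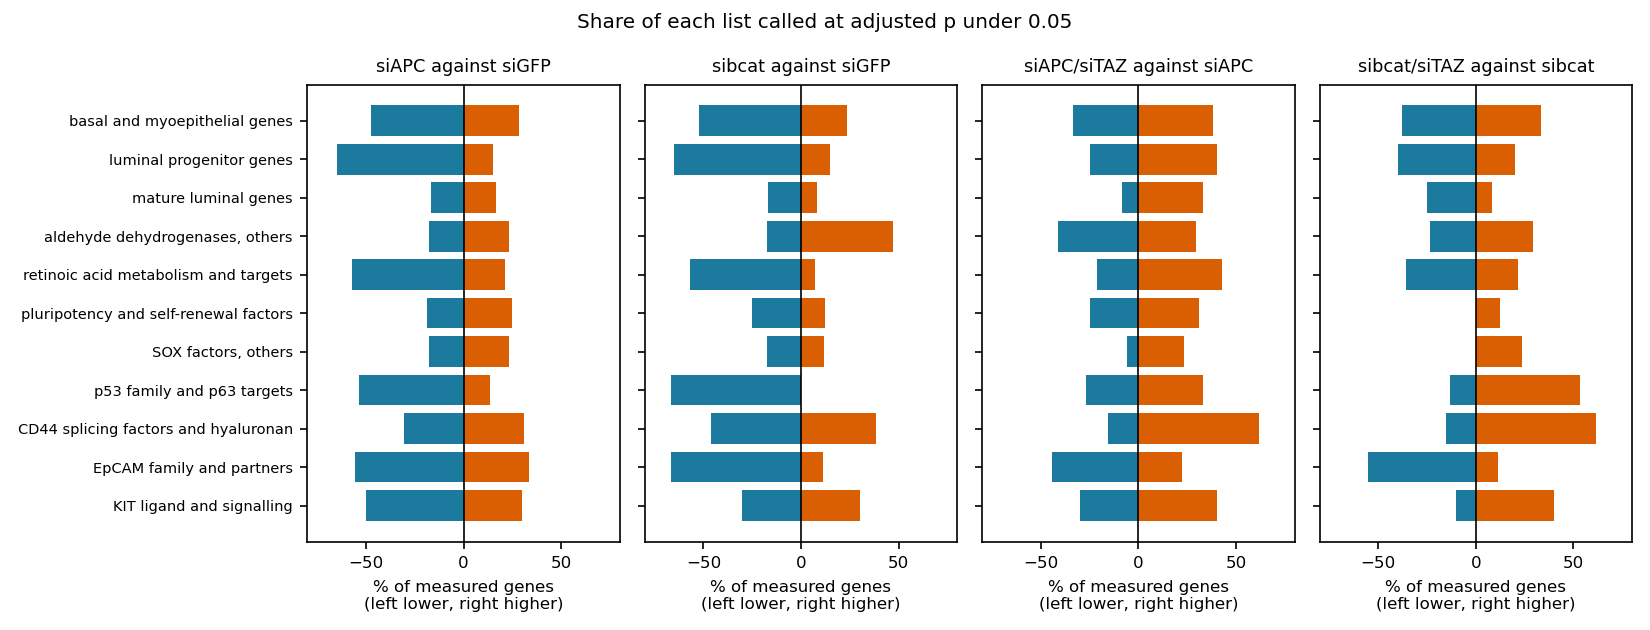
Share of the measured genes of each of the 11 lists called lower (blue, left) or higher (orange, right) at adjusted p under 0.05 (horizontal axis, percent) in 4 comparisons of 4 arrays each. Luminal progenitor genes have 13 of 20 lower after either single depletion, and 8 of 13 CD44 and hyaluronan genes are higher with TAZ siRNA in either background.

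By Pearson correlation of log2 signals over the 20 arrays, given as a description since the arrays share 5 conditions, the closest genes were VLDLR (0.991), H2AZ1 (0.989) and CLIP4 (0.989) for CD24, and AK4 (0.990), PEX2 (0.989) and BTBD7 (0.986) for ALDH1A3. For EPCAM they were MAL2 (0.990), PPP1R3B (0.976) and PIAS1 (0.975), and for SOX9 they were ADGRG1 (0.965), ESRP1 (0.964) and PRSS12 (0.964). The CD44 probe set 212063_at was closest to MIA2 (0.973), TRERF1 (0.963) and KYNU (0.956). The dim members had looser neighbours: PROM2 (0.907), PADI3 (0.902) and GRB7 (0.900) for PROM1, and CPNE4 (0.884), MIR34BHG (0.883) and ARHGAP42 (0.870) for ALDH1A1.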

How the data were processed

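The authors deposited log2 signals per probe set. RMA is named in the submitters' processing notes, with its version not given in the sources used here, and the log2 scale follows from the size of the values. They were used as deposited, for 20 arrays in 5 groups of 4. Of 54675 probe sets, 62 control probe sets were left out, and 41091 of the rest had 1 symbol, 1801 several and 11721 none. Symbols were updated through the human RefSeq table (GRCh38.p14). Each gene was read by its probe set with the highest mean, with no filter on low values. With limma 3.58.1 in R 4.3.3 a mean per group was fitted over the 20 arrays (15 residual degrees of freedom, prior 3.39, median residual SD 0.108), two-sided, with Benjamini-Hochberg adjustment over 19775 genes, and apart from that over 54613 probe sets. The fit was tested on simulated data. Calls are at an adjusted p under 0.05, and intervals are 95% intervals of the fit. The number of arrays limits the precision.

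The members, the lists and the tests were chosen with earlier results of these data known. Named genes are the members with all their probe sets, the siRNA targets, up to 3 called genes with the largest change per list in each of 4 comparisons, and the 3 genes closest to each member with a call among the direct comparisons against siGFP, with TAZ siRNA or of siAPC with sibcat. Not all of them are printed. Fibroblast and epithelial markers are from fixed cell type lists. No pair of arrays was identical (0 pairs). The alternatives were the mean of all probe sets, a fit over all probe sets, a filter on low signals, centring of arrays, a mean-dependent prior, the compared groups only, the replicate letters as a block, and leaving out each array.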

Additional observations from a re-analysis of the deposited data

Results flagged for a closer look

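In 60 groups of 4 arrays checked for a lone array, 2 had one, and chance gives about 1 in 20 groups. Both were in the CD24 probe set 216379_x_at: siGFP replicate C read 13.38 where the other 3 read 13.40, and sibcat/siTAZ replicate C read 11.91 where the others read 11.98 to 11.99.

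The effect of TAZ siRNA differed between the siAPC and the sibcat background, by the interaction in the limma fit, in 6 of the 9 genes. SOX2 was not among these 6, but 1 of its 4 probe sets passed in the fit over all probe sets. The difference (effect in siAPC minus effect in sibcat, log2) was 0.68 for CD24 (adjusted p = 7.5e-10), 0.22 for CD44 (0.00307), 0.54 for ALDH1A1 (0.0124), 0.60 for ALDH1A3 (8.9e-07), -0.45 for EPCAM (1.4e-04), 0.43 for SOX9 (7.5e-05) and 0.89 for the SOX2 probe set 228038_at (0.0285). Among all genes, 27.7% passed this test. The siRNA targets differed in this way too: CTNNB1 by 1.69 (1.4e-12), APC by -0.67 (8.8e-07) and WWTR1 by -0.45 (1.2e-04). The fall of WWTR1 with TAZ siRNA was thus larger in the siAPC background. The part of these target differences in the results was not tested.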

How the results depend on the processing

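Over 27 alternatives, 2151 pairs of a member result and a setting were computed. Of these, 2098 kept their side of the threshold, 24 no longer passed and 26 newly passed. A further 3 turned direction with a call in at least 1 of the compared fits. Turns of direction without a call in either fit were not counted apart and are among the 2098. Those 3 arose with the mean of all probe sets: SOX2 in siAPC/siTAZ against siGFP at 0.66, SOX2 in sibcat/siTAZ against siGFP at 0.23 and CD44 in sibcat/siTAZ against siGFP at -0.52, where averaging brings in probe sets that moved otherwise than the brightest. The count of members called moved from 4 to 2 in sibcat/siTAZ against sibcat with the compared groups only, and from 5 to 3 in siAPC against sibcat both there and in the fit over all probe sets. With the mean of all probe sets it went from 5 to 7 in siAPC/siTAZ and from 6 to 8 in sibcat/siTAZ against siGFP. Leaving out 1 array gave 5 to 6 called genes for siAPC, 6 to 6 for sibcat, 6 to 6 for siAPC/siTAZ against siAPC, 3 to 5 for sibcat/siTAZ against sibcat, 5 to 6 and 6 to 7 for siAPC/siTAZ and sibcat/siTAZ against siGFP, 3 to 5 for siAPC against sibcat, 5 to 6 for siAPC/siTAZ against sibcat/siTAZ and 6 to 6 for the interaction. With a replicate block the count was 4 in place of 5 for siAPC against sibcat, where EPCAM had an adjusted p of 0.0578, and the block changed no other call. No label says what the letters A to D share, and they did not meet the rule for pairs (every correlation over 0.1): residuals of same-letter arrays correlated at -0.088 to 0.156, with a median of 0.027, 8 of 40 pairs were over 0.1, and 7 of 20 arrays matched best under their own letter. Low signal limits PROM1, ALDH1A1 and KIT, which lay below the array medians in all groups. The SOX2 probe sets 213722_at and 214178_s_at lay below them too.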
